A study of Mus musculus with 13 samples.

Results

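The genes described here are 10 genes of the circadian clock, taken by name from a table of 56953 genes: Per1, Per2, Per3, Cry1, Cry2, Nr1d1, Nr1d2, Dbp, Tef and Clock. All 10 passed the filter on low counts, as did 18055 genes in all. They were measured by RNA sequencing of whole aorta from ApoE-/- mice, which lack apolipoprotein E and develop atherosclerosis, in a study of the gold compound auranofin in atherosclerosis progression. Every mouse, untreated ones included, carried the ApoE-/- genotype and ate a Western diet for 16 weeks from an age of 6 weeks, so neither a wild-type nor a normal-diet aorta is part of these comparisons. The auranofin group (3 libraries) received auranofin at 3 mg/kg/day, the atorvastatin group (3 libraries) received atorvastatin, a statin, at 10 mg/kg/day, and the combination group (2 libraries) received both at those doses. The WD group (5 libraries) had the Western diet with no drug. The drugs were given in the diet. The labels did not say that each library came from a separate mouse, so p-values measure only the spread between these samples, which may be partly technical. The hour at which the aortas were collected is not given in the sources used here.

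The mammalian clock is a feedback loop of transcription that runs in nearly every cell, including the smooth muscle, endothelial and adventitial cells of the vessel wall. CLOCK, or its relative NPAS2, pairs with BMAL1 (encoded by Arntl) and switches on Per, Cry, Nr1d1, Nr1d2, Dbp and Tef through E-box sequences, after which the PER and CRY proteins block that pair and the nuclear receptors encoded by Nr1d1 and Nr1d2 (REV-ERB alpha and beta) repress Arntl and Npas2. In mouse tissues, aorta among them, Arntl and Npas2 therefore peak at nearly the opposite time of day to Dbp, Per3 and Nr1d1, while Clock itself varies little.

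The counts per library totalled 19703683 to 26079566, with a median of 23550042. Levels are given in CPM, the counts of a gene scaled to a library of common size. Contractile smooth muscle markers, which define the aortic wall, summed to 6005 to 15547 CPM in auranofin libraries, 13132 to 18217 in atorvastatin, 10523 to 19721 in combination and 12942 to 27330 in WD libraries. All 7 markers of that list were detected. Mitochondrial genes took 9.36% to 38.8% of counts, with the highest share in auranofin 2. The scaling factor was lowest in auranofin 2 (0.629) and WD 2 (0.639), which stood apart from the other libraries. Auranofin 2 also differed in its tissue markers, with the lowest smooth muscle sum of the series (6005 CPM). Its endothelial markers summed to 2399 CPM, against at most 992 in any other library (WD 4). Brown adipocyte markers summed to 2757 CPM, against at most 1599.7 (combination 2), and T cell markers to 25.1, against at most 12.1 (WD 2). Its B cell markers, at 72.7 CPM, were also the highest of the series. Heart muscle markers, 5 of 6 tested, summed to 1412 CPM in combination 2, 365 in WD 4 and 251 in WD 1, against 5.56 to 18.7 CPM in the other 10 libraries. These are bulk measurements, in which fewer cells of a type and less RNA per cell cannot be told apart.

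Because several of these genes moved together from library to library, the 250 bases before their start sites were searched for clock-related sequences in the RefSeq promoter table (build GRCm38.p6, while the counts were made on GRCm39). The motifs were the E-box CACGTG, the E'-box CACGTT, the D-box TTATGNAA read by DBP, TEF, HLF and their antagonist NFIL3, and the 6-base receptor site AGGTCA read by REV-ERB and ROR receptors, each on both strands. A promoter was given for 9 of the 10 genes and for 13 start sites. Sequences are shown, 5' to 3' on the strand of the gene and ending at the base before the start, for 5 genes that hold a match and for Dbp, the gene with the widest swing. Capitals mark the matches. The coordinates are chr11:69098699-69098948 on the plus strand for Per1, chr4:151044666-151044915 on the minus strand for Per3, chr10:85185055-85185304 on the minus strand for Cry1, chr11:98775378-98775627 on the minus strand for Nr1d1, chr15:81802423-81802672 on the plus strand for Tef and chr7:45704997-45705246 on the plus strand for Dbp.
Per1: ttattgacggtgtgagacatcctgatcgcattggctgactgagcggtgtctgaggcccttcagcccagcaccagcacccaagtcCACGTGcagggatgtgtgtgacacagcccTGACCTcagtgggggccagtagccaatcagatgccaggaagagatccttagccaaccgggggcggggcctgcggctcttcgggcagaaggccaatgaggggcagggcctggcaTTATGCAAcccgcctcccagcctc
Per3: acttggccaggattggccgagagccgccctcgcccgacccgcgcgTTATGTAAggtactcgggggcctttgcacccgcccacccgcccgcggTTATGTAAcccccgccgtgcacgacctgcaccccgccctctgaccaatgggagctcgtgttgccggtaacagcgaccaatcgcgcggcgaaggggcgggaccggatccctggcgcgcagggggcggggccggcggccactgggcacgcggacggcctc
Cry1: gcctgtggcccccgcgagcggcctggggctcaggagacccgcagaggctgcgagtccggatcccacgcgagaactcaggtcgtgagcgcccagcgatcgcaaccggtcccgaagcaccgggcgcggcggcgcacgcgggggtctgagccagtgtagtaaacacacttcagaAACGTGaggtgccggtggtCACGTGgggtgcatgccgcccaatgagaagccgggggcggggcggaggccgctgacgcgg
Nr1d1: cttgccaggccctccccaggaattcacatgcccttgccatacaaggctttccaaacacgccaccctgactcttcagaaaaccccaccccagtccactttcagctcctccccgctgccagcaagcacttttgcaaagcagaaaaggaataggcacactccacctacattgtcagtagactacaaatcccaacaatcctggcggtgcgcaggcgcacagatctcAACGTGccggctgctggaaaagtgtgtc
Tef: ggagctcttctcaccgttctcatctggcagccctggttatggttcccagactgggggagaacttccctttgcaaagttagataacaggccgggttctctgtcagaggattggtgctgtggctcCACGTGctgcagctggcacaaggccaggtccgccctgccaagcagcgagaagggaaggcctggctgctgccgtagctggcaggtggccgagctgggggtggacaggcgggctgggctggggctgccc
Dbp: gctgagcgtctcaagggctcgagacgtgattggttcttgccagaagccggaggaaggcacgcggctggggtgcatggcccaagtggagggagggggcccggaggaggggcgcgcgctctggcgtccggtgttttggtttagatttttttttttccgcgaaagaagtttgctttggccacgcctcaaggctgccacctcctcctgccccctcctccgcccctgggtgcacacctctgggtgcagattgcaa

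In Per1 the E-box lies 166 bases before the first start, the receptor site 137 and the D-box 24 bases before it. None of the motifs lies in the window before the second start of Per1. Per3 holds 2 D-boxes, at 205 and 158 bases before the start. Cry1 holds an E'-box at 79 and an E-box at 60 bases, Nr1d1 an E'-box at 28 bases, and Tef an E-box at 127 bases before its first start and at 138 bases before its second. Cry2 holds an E'-box at 166 bases, and the receptor site is found in Nr1d2 at 77 bases and before the third start of Clock at 119 bases. An E-box or E'-box was thus present in 5 of the 9 genes with a promoter. Of 32851 mouse promoters of the same length, 6.02% held the E-box, 3.85% the E'-box, 3.07% the D-box and 14.02% the receptor site. Those shares are per promoter and for each motif alone. The 5 of 9 genes count either motif before any start site, so the shares are not a like baseline for them. None of the motifs lies in the Dbp window, which says only that these letters are not in those 250 bases.

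To compare one clock gene with another, CPM was divided by the length of the annotated exons. Nr1d1 had the highest median over the 13 libraries, at 41.2 CPM per kb. The other REV-ERB gene, Nr1d2, and Dbp followed at 18.6 CPM per kb each, and Tef at 16.3. Per2 was at 5.97, Per1 at 5.89, Cry2 at 4.37, Clock at 4.14 and Per3 at 3.19 CPM per kb, with Cry1 lowest at 1.24. Neighbours in this order had overlapping ranges over the libraries, so the order holds for medians only. Exon length joins all annotated isoforms, which lowers the value of a gene with long, rarely used exons. The libraries were not stranded, and 18.01% of the Dbp exon length is shared with Sphk2 on the other strand and 8.55% of the Nr1d1 exon length with Thra. Reads there cannot be assigned to one strand. Over the libraries Sphk2 ranged 1.77-fold and Thra 2.84-fold, beside 16.7-fold for Dbp and 3.47-fold for Nr1d1.

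Dbp encodes a D-box activator and is among the most strongly cycling transcripts known in mouse tissues. It was at 71.2, 70.3 and 118 CPM in auranofin libraries 1 to 3, at 21.6, 14.2 and 16.5 CPM in atorvastatin libraries 1 to 3, and at 173 and 27.2 CPM in combination libraries 1 and 2, against 12.7, 212, 55.7, 14.4 and 180.5 CPM in WD libraries 1 to 5. The WD libraries alone spanned the whole range of the series, a 16.7-fold difference between WD 2 and WD 1. The auranofin libraries lay in the middle of that range, the atorvastatin libraries at its low end, and the combination libraries on either side. Group means were 86.5 ± 27.3 CPM with auranofin (SD, n = 3), 17.4 ± 3.77 with atorvastatin (n = 3), 100.04 ± 103 with the combination (n = 2) and 95.1 ± 94.8 in WD (n = 5). Sorted by Dbp, the largest step on the log2 scale was 1.03, between 27.2 CPM in combination 2 and 55.7 CPM in WD 3, with 6 libraries below it and 7 above.

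**Figure D1:**
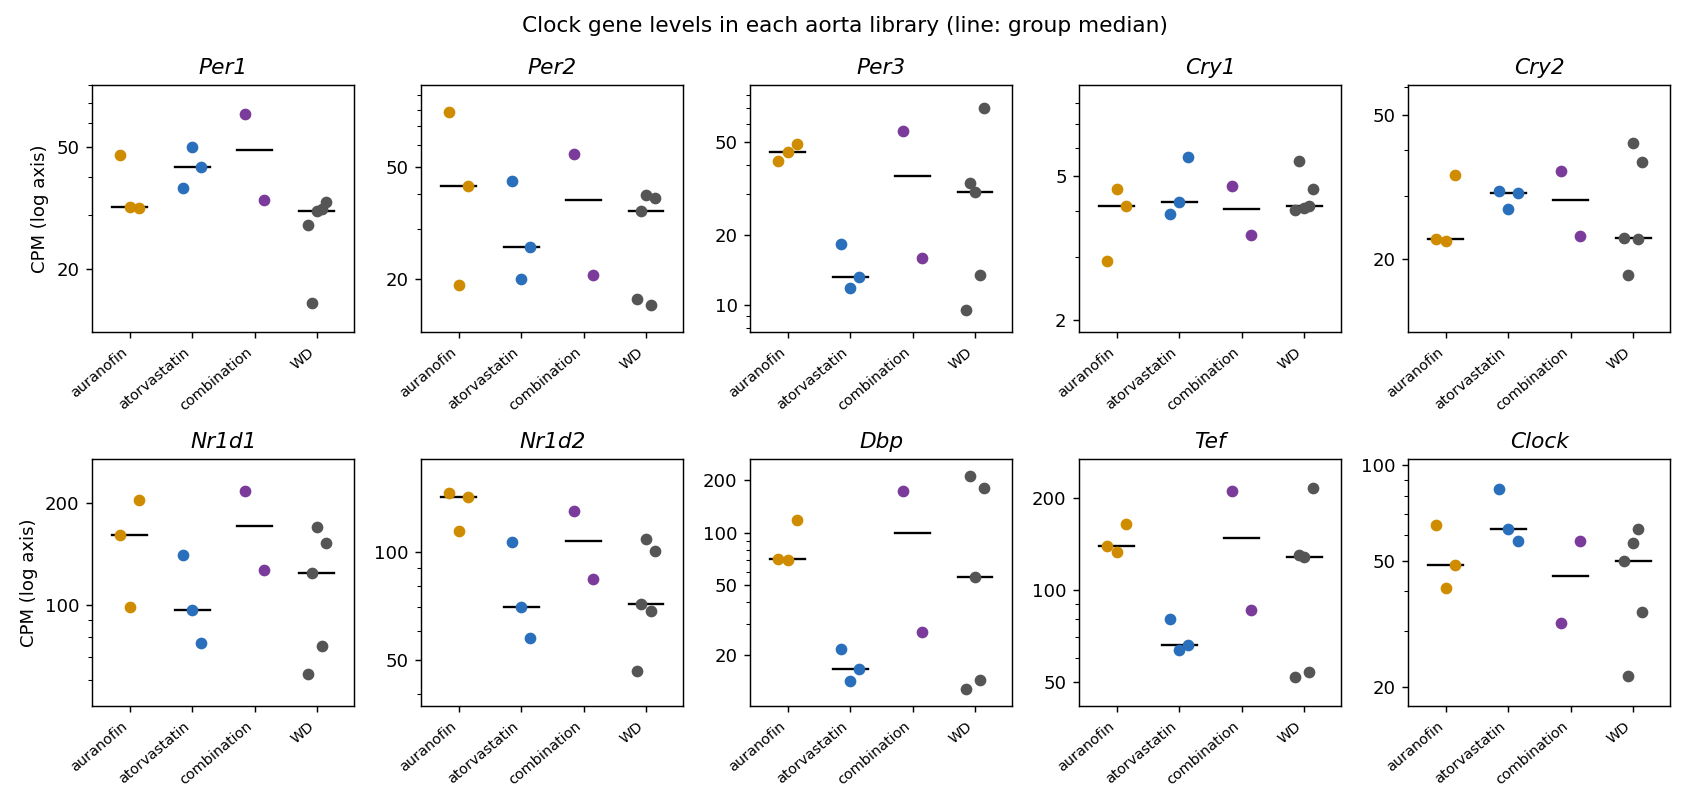
CPM of the 10 clock genes (log axis) in each library, by group, with a line at each group's median. Dbp spans 12.7 to 212 CPM within WD, while Cry1 stays between 2.92 and 5.67 CPM over all 13 libraries.

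Tef, the second D-box activator, followed a similar order with a smaller swing. Tef was at 139, 133 and 164 CPM in auranofin, 80.0, 63.6 and 66.0 in atorvastatin, and 210.2 and 85.9 in combination libraries, against 52.0, 129.7, 128, 53.9 and 215 CPM in WD. Its lowest libraries, WD 1 and WD 4, were also among the 3 lowest for Dbp, and its highest, WD 5 and combination 1, were among the 3 highest. WD 2 was the exception, first in Dbp but sixth in Tef. Over the 13 libraries Tef differed 4.13-fold.

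Among the Per and Cry genes, Per3 came closest to Dbp. Per3 was at 41.5, 45.4 and 49.5 CPM in auranofin, 18.3, 11.8 and 13.2 in atorvastatin, and 55.9 and 15.9 in combination libraries, against 9.56, 33.6, 30.7, 13.4 and 70.6 CPM in WD, a 7.39-fold range. The 3 auranofin libraries were close to each other and all above the 3 atorvastatin libraries, but WD reached beyond both. Per2, whose protein is a core partner of the cryptochromes, was at 78.3, 19.04 and 42.9 CPM in auranofin, 44.6, 19.9 and 25.9 in atorvastatin, and 55.8 and 20.6 in combination libraries, against 17.0, 35.0, 39.6, 16.1 and 38.9 CPM in WD. Here every group held both low and high libraries, and the 4.86-fold range separated none of them.

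Per1, the period gene that also responds acutely to stimuli such as glucocorticoids and cAMP, had another order. It was at 47.1, 31.8 and 31.7 CPM in auranofin, 36.8, 50.1 and 43.2 in atorvastatin, and 64.2 and 33.7 in combination libraries, against 27.7, 15.4, 30.9, 31.3 and 33.2 CPM in WD. The WD library with the highest Dbp, WD 2, had the lowest Per1. All atorvastatin and combination libraries were above all WD libraries, though combination 2 (33.7) exceeded WD 5 (33.2) by very little. The cryptochromes, the strongest repressors of the CLOCK and BMAL1 pair, were the steadiest of the 10. Cry2 ranged from 22.4 to 34.2 CPM in auranofin, 27.6 to 30.9 in atorvastatin and 23.1 to 35.1 in combination libraries, against 18.1 to 42.0 CPM in WD. Cry1 lay between 2.92 and 5.67 CPM in every library, a 1.94-fold range, and is the lowest of the 10 genes, so counting error weighs most on it.

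The REV-ERB genes were high throughout. Nr1d1 was at 161, 98.3 and 204 CPM in auranofin, 141, 96.3 and 76.9 in atorvastatin, and 217 and 127 in combination libraries, against 62.5, 124, 169.8, 75.4 and 152 CPM in WD. Groups overlapped for Nr1d1 in every comparison. Nr1d2 was at 145, 114 and 142 CPM in auranofin, 106, 70.2 and 57.3 in atorvastatin, and 129.7 and 83.8 in combination libraries, against 46.3, 71.4, 109, 68.5 and 101 CPM in WD. The lowest auranofin library for Nr1d2 was above the highest WD library, 114 against 109 CPM, whereas the combination and atorvastatin libraries overlapped WD.

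Clock encodes the activator. It was at 64.9, 40.9 and 48.3 CPM in auranofin, 83.9, 63.0 and 57.6 in atorvastatin, and 31.8 and 57.7 in combination libraries, against 50.0, 21.7, 56.9, 62.9 and 34.4 CPM in WD. The lowest values were those of WD 2, combination 1 and WD 5, the 3 libraries with the most Dbp. Arntl, which encodes its partner BMAL1, and Npas2, which encodes its alternate, are not among the 10 genes and had wider ranges. Arntl was at 8.43, 3.49 and 6.67 CPM in auranofin, 20.7, 24.6 and 27.8 in atorvastatin, and 2.33 and 17.1 in combination libraries, against 25.9, 2.52, 16.2, 23.1 and 1.32 CPM in WD, a 21.1-fold range. Npas2 ranged 16.4-fold, from 1.98 to 7.34 CPM in auranofin, 30.3 to 31.5 in atorvastatin and 4.36 to 12.99 in combination libraries, against 1.92 to 31.3 CPM in WD.

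**Figure D2:**
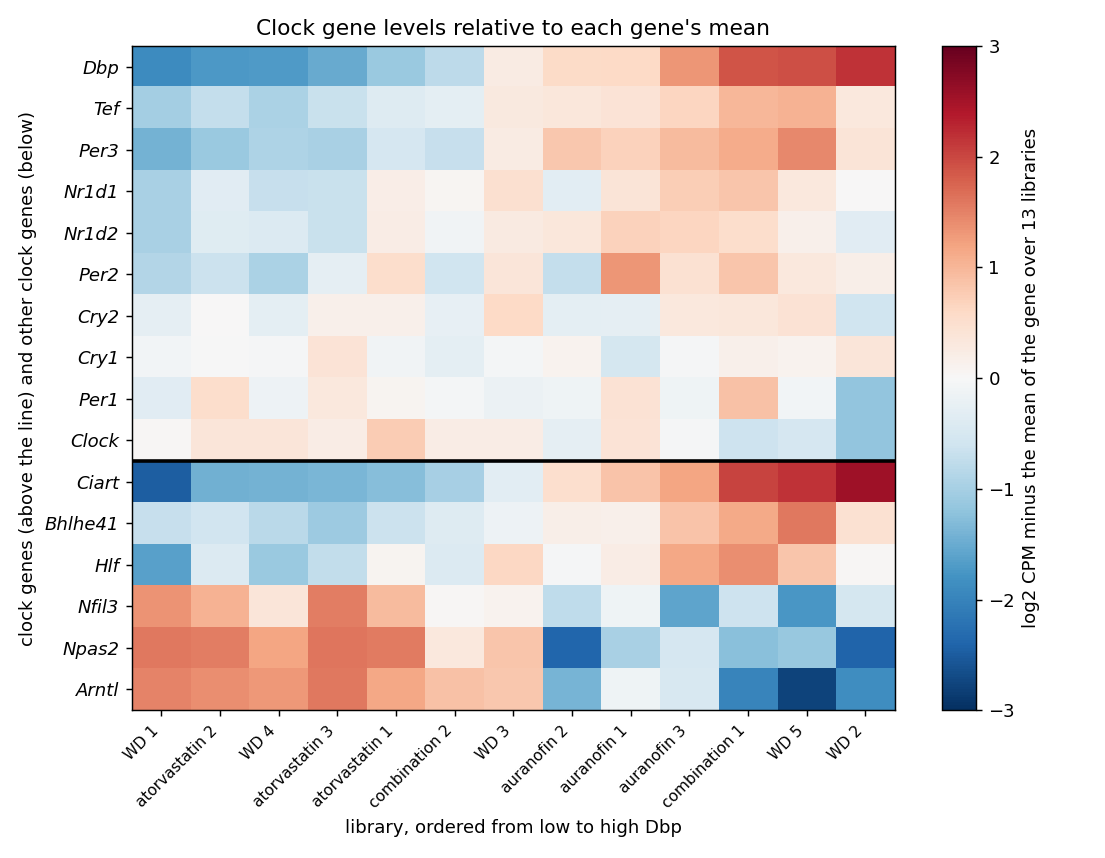
Colours give log2 CPM minus the gene's mean over the 13 libraries; libraries run from low Dbp on the left (12.7 CPM in WD 1) to high Dbp on the right (212 CPM in WD 2). Tef and Per3 shade from blue to red with Dbp, Npas2 and Arntl from red to blue, and Cry1 and Cry2 stay pale.

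The 47 relations of Dbp with the other clock genes, their outputs and measures of the libraries were tested over the 13 libraries on log2 CPM, with two-sided permutation tests and Benjamini-Hochberg adjustment. Tef had a Pearson r of 0.95 (permutation p = 1e-05, the smallest possible, adjusted p = 0.000157) and a Spearman rho of 0.91 (p = 4e-05). For Per3 r was 0.93 (permutation p = 5e-05, adjusted p = 0.000392) and rho 0.90 (p = 7e-05). For Nr1d1 r was 0.74 (permutation p = 0.00529, adjusted p = 0.0207) and rho 0.70 (p = 0.00979). These 3 genes were thus high where Dbp was high. Clock ran opposite, with an r of -0.76 (permutation p = 0.00156, adjusted p = 0.00667), while its rho of -0.65 had a p of 0.0194 and an adjusted p of 0.0701. Arntl had an r of -0.93 (permutation p = 2e-05, adjusted p = 0.000188) and a rho of -0.93 (p = 2e-05). Npas2 had an r of -0.87 (permutation p = 0.00049, adjusted p = 0.00288) and a rho of -0.87 (p = 2e-04).

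Per2 and Nr1d2 each had an r of 0.63 with an adjusted permutation p of 0.0652 and did not pass. Cry1, Cry2 and Per1 had r of 0.20, 0.18 and -0.18 and did not pass either. In all 13 of the 47 relations passed, 4 of them members. The others were Arntl, Npas2, the repressors Ciart (0.98) and Bhlhe41 (0.92), the D-box factors Hlf (0.82) and Nfil3 (-0.87), and the output genes Wee1 (0.91), Tspan4 (0.79) and Usp2 (0.66). By rho, Clock and Usp2 did not pass. Without WD 1 and atorvastatin 2, the libraries farthest from the Dbp median, r was 0.93 for Tef, 0.91 for Per3, 0.66 for Nr1d1, -0.81 for Clock, -0.92 for Arntl and -0.83 for Npas2. Leaving out any one library moved r of Tef between 0.94 and 0.99, of Per3 between 0.92 and 0.98 and of Arntl between -0.95 and -0.92. Without WD 2 and auranofin 2, the libraries with the lowest scaling factors, r was 0.99 for Tef and Per3, 0.87 for Nr1d1, -0.70 for Clock and -0.93 for Arntl and Npas2.

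The relations were also taken as deviations from the group means, pooled over all groups. R was then 0.94 for Tef, 0.92 for Per3, 0.75 for Nr1d1, -0.76 for Clock and -0.90 for Arntl. The SD of Dbp log2 CPM was 1.93 in WD and 1.88 in the combination (n = 2), against 0.43 in auranofin and 0.30 in atorvastatin. The pooled r thus rests mostly on WD and combination libraries and does not show the relation within the auranofin or atorvastatin group. The groups allow 8640 permutations within groups. By that exact test, 0 of the 47 relations passed adjustment, with adjusted p of 0.0511 for Tef and Per3, 0.117 for Nr1d1, 0.155 for Clock and 0.107 for Arntl. Since the libraries step apart at the Dbp gap, r was also taken on each side. In the 6 libraries below and the 7 above it, r was 0.95 and 0.59 for Tef, 0.84 and 0.46 for Per3, 0.85 and 0.16 for Nr1d1, -0.85 and -0.82 for Arntl, and 0.39 and -0.85 for Clock. The difference between the 2 sides was not tested.

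**Figure D3:**
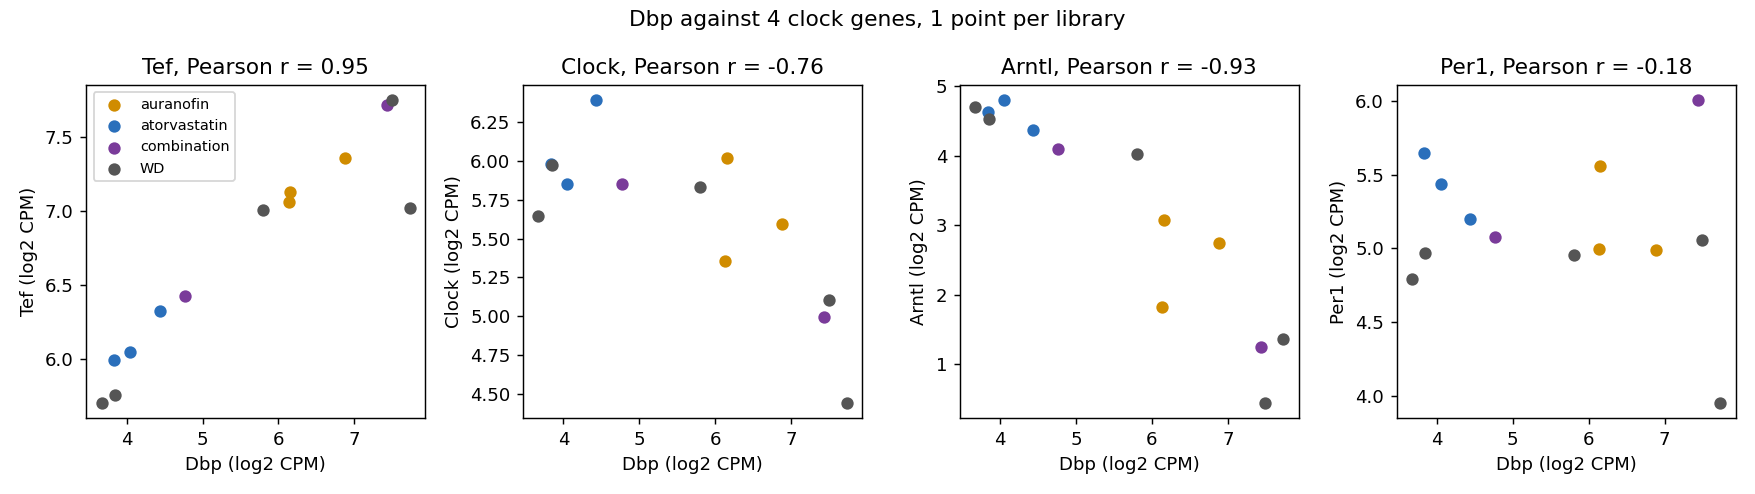
Each point is 1 library, with Dbp on the x axis and Tef, Clock, Arntl or Per1 on the y axis, both in log2 CPM, coloured by group. Tef climbs with Dbp (r = 0.95), Arntl descends (r = -0.93), and Per1 shows no trend (r = -0.18).

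By Pearson r, no measure of the libraries passed against Dbp. The total count had an r of 0.59 (adjusted permutation p = 0.0652), but its rho of 0.69 passed (adjusted permutation p = 0.0427), and as deviations from the group means its r was 0.86 (exact within-group test, adjusted p = 0.107). The scaling factor had an r of -0.58 (adjusted permutation p = 0.0930). The heart muscle score had an r of -0.55 (adjusted permutation p = 0.122), and as deviations from the group means -0.93 (exact within-group test, adjusted p = 0.0511), the same adjusted p as Tef and Per3. The 3 libraries with the most heart muscle RNA, combination 2, WD 4 and WD 1, were all among the 6 below the Dbp gap, and the other 3 of these were the atorvastatin libraries. Without those 3 libraries, r with Dbp over the other 10 was 0.92 for Tef, 0.91 for Per3, 0.63 for Nr1d1, -0.81 for Clock, -0.92 for Arntl and -0.85 for Npas2. The glucocorticoid response score had an r of -0.17, the immediate early score 0.09 and the white adipocyte score -0.07. The number in each library's name, the only ordering the labels give, had an r of -0.15 to 0.36 with the 10 genes, and 0 of these 10 relations passed (adjusted permutation p = 0.781 to 0.971). The part of library depth or of heart muscle tissue in the spread of Dbp was not tested.

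Genes whose log2 CPM averaged 0 or more were ranked by Pearson r with Dbp over the 13 libraries. Genes without a symbol, predicted genes, clone names, mitochondrial genes and immunoglobulin or T cell receptor segments were left out. The 12856 genes ranked had a median r of -0.13, and 29 exceeded 0.8. The 8 most alike were Ciart, Tef, Per3, Nat8f7, Bhlhe41, Sord, Nat8f3 and Herpud1, with r of 0.98 to 0.91. The 8 most opposed were Arntl, Gramd4, Lox, Leo1, Col5a3, Npas2, Nfil3 and Tmtc4. Of the 9 other members, Tef and Per3 were thus in the first 3 places, and Nr1d1 was in place 87.

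Spread within groups was large for part of the clock, though not in every group. The pooled within-group SD of log2 CPM was 1.45 for Dbp, larger than for 99.0% of the genes whose log2 CPM averaged 0 or more. It was 0.89 for Per3, 0.78 for Per2 and 0.68 for Tef, at percentiles 93.2, 89.5 and 83.6. Nr1d1 (0.56), Clock (0.51), Nr1d2 (0.43), Per1 (0.42) and Cry2 (0.41) were nearer the middle, and Cry1 (0.26) was at percentile 22.5. In WD and the combination (n = 2) the SD of Dbp was 1.93 and 1.88, against 0.43 in auranofin and 0.30 in atorvastatin. For Per3 it was 1.14 and 1.28, against 0.13 and 0.33, and for Tef 0.89 and 0.91, against 0.16 and 0.18. Per2 differed, with 0.66 and 1.01, against 1.02 and 0.59. Without combination 2, WD 4 and WD 1 the pooled SD was 0.68 for Dbp, 0.43 for Per3, 0.68 for Per2 and 0.28 for Tef. Those were the lowest libraries of WD and the combination in all 4 genes. Leaving them out narrows the spread by itself and leaves no spread in the combination. The pooled SD of all genes was not taken in that setting. Without WD 2 and auranofin 2 the pooled SD was 1.40, 0.99, 0.72 and 0.75 for these 4 genes. The median was 0.54 over the 10 genes and 0.39 over all genes. Differences between groups took 46.4% of the variation of Per1 and 48.5% of that of Nr1d2, but 32.4% of that of Dbp and 4.04% of that of Cry2, against a median of 28.02% over all genes.

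**Figure D4:**
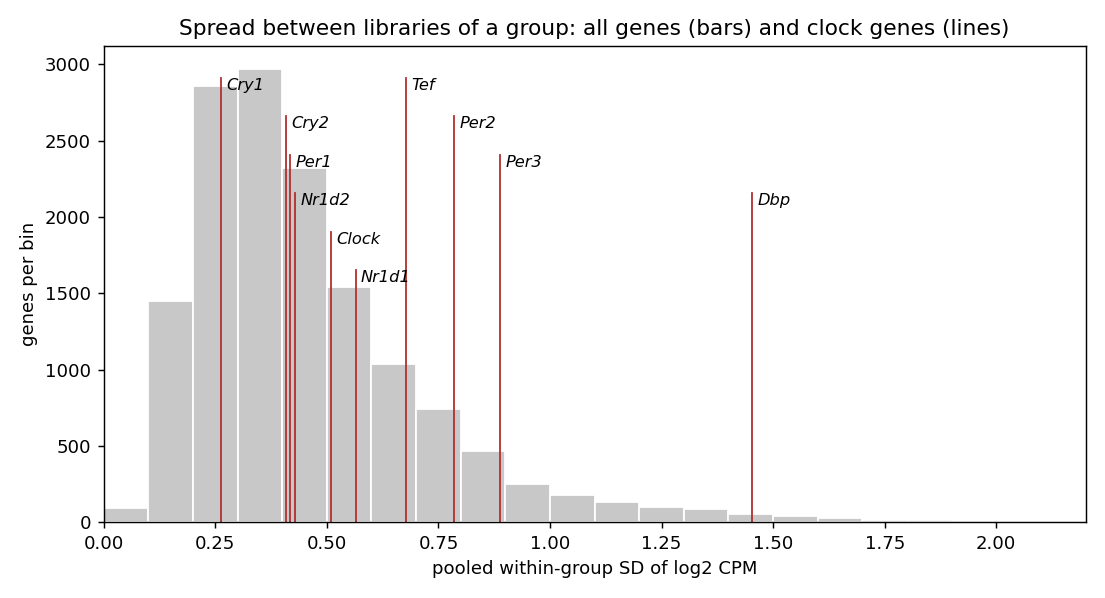
Bars count genes by pooled within-group SD of log2 CPM (x axis), and red lines mark the 10 clock genes. Dbp, at 1.45, is far to the right of the median gene at 0.39, and Cry1, at 0.26, is to its left.

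The first drug comparison set the auranofin libraries against the untreated WD libraries. Nr1d2 averaged 134 ± 17.0 CPM with auranofin (SD, n = 3) and 79.1 ± 25.3 CPM in WD (n = 5), a log2 fold change of 0.76 (SE 0.29; edgeR quasi-likelihood test, adjusted p = 0.671). It was the only member past an unadjusted p of 0.05, and the only one whose groups did not overlap. Over all genes, 6.5% passed the unadjusted threshold and the groups of 2.77% did not overlap. With Benjamini-Hochberg adjustment 0 of the 10 genes were called, as were 0% of all genes. Without auranofin 2 the Nr1d2 value was 0.86, and without WD 2 it was 0.72. Without auranofin 1 or without auranofin 3 Nr1d2 no longer passed unadjusted. White adipocyte markers, all 6 detected, summed to 421 to 684 CPM in auranofin libraries and 95.1 to 399 CPM in WD libraries, and with an adipocyte score as covariate the Nr1d2 value was 0.79. Per2 had a log2 fold change of 0.68 (SE 0.48), Per3 0.53 (0.54), Per1 0.41 (0.27), Nr1d1 0.41 (0.36) and Tef 0.33 (0.43), each within 2 SE of 0. In mean log2 CPM the differences were 0.56, 0.87, 0.44, 0.45 and 0.53 for these genes in that order. Leaving out 1 library moved the fitted value of Per2 to between 0.084 (without auranofin 1) and 1.05. That of Per3 moved to between 0.28 (without WD 1) and 1.06 (without WD 5). Per1 then ran from 0.20 to 0.52, Nr1d1 from 0.15 to 0.65 and Tef from 0.13 to 0.68. WD 1 and WD 4 were the WD libraries lowest in Nr1d2, Per3 and Tef, so leaving both out lowers those values by itself. Without WD 1, WD 4 and combination 2, Nr1d2 was 0.51 and no longer passed unadjusted, where 13.4% of all genes did, Per3 was 0.018 and Tef -0.11. The fitted sign was higher for 7 genes and lower for 3, against 46.4% higher over all genes, and the median was 0.37, against -0.04 over all genes. Dbp had a fitted log2 fold change of -0.14 (SE 0.84), which follows the linear means of 86.5 CPM with auranofin and 95.1 in WD. Its mean log2 CPM was higher with auranofin by 0.68, the opposite sign, so no direction can be given, and without those 3 libraries the fitted value was -0.79.

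Atorvastatin was compared with WD in the same way. Dbp averaged 17.4 ± 3.77 CPM with atorvastatin (SD, n = 3) and 95.1 ± 94.8 CPM in WD (n = 5), a log2 fold change of -2.45 (SE 0.93; edgeR quasi-likelihood test, adjusted p = 0.340). Per1 averaged 43.4 ± 6.69 CPM with atorvastatin and 27.7 ± 7.14 CPM in WD, a log2 fold change of 0.64 (SE 0.27; edgeR, adjusted p = 0.340). These 2 members passed the unadjusted threshold, as did 14.7% of all genes, and 0 passed adjustment, as did 0% of all genes. The fitted Dbp value follows the linear means, and the difference in its mean log2 CPM was smaller, at -1.60. WD 1 and WD 4 held as little Dbp as the atorvastatin libraries, 12.7 and 14.4 CPM, so those groups overlapped. Among the 10 genes only the groups of Per1 did not, against 5.7% of all genes. Without WD 2, which held the most Dbp and the least Per1, the values were -1.92 for Dbp and 0.49 for Per1. Per3 had a log2 fold change of -1.13 (SE 0.57), Tef -0.73 (0.44) and Clock 0.59 (0.32), and the other 5 lay between -0.16 and 0.05. In mean log2 CPM the differences were -0.80 for Per3, -0.53 for Tef and 0.67 for Clock. Without WD 5, the fitted value was -0.59 for Per3 and -0.38 for Tef. WD 1 and WD 4 were the WD libraries lowest in Dbp, Per3 and Tef, so leaving both out widens those differences by itself. Without WD 1, WD 4 and combination 2, the values were -3.09 for Dbp, -1.64 for Per3, -1.18 for Tef, 0.84 for Clock and 0.70 for Per1. These 5 then passed the unadjusted threshold, as did 21.5% of all genes, and 0 passed adjustment (edgeR, lowest adjusted p = 0.175). The fitted sign was higher for 5 members and lower for 5, against 49.2% higher over all genes, with a median of 0.01 against -0.01 over all genes.

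The combination was compared with WD using 2 libraries that stood on opposite sides of the Dbp range. Per1 averaged 48.9 ± 21.5 CPM with the combination (SD, n = 2) and 27.7 ± 7.14 CPM in WD (n = 5), a log2 fold change of 0.82 (SE 0.30; edgeR quasi-likelihood test, adjusted p = 0.997). Without combination 1 it was 0.27, and without combination 2 it was 1.22. Per1 was the only member past an unadjusted p of 0.05, which 1.47% of all genes passed, and the only one without overlap, which 3.29% of all genes showed; 0 members and 0% of all genes passed adjustment. Dbp had a log2 fold change of 0.07 (SE 0.95), but combination 1 held 173 CPM and combination 2 held 27.2, and the value was -1.82 without the first and 0.87 without the second. Without WD 1, WD 4 and combination 2, Per1 was 1.26 and Dbp 0.21. Tef, Per3 and Clock likewise had opposite signs when one or the other library was left out. The fitted sign was higher for 8 of the 10 genes, against 49% of all genes, with a median of 0.27 against -0.01. That count rests on combination 1, without which Per2 was -0.51, Per3 -0.998, Cry2 -0.31, Dbp -1.82 and Tef -0.44. Per1, Nr1d1 and Nr1d2 then stayed positive and Clock turned positive. R between members was positive in 33 of 45 pairs, so counts of signs are not counts of independent genes.

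**Figure D5:**
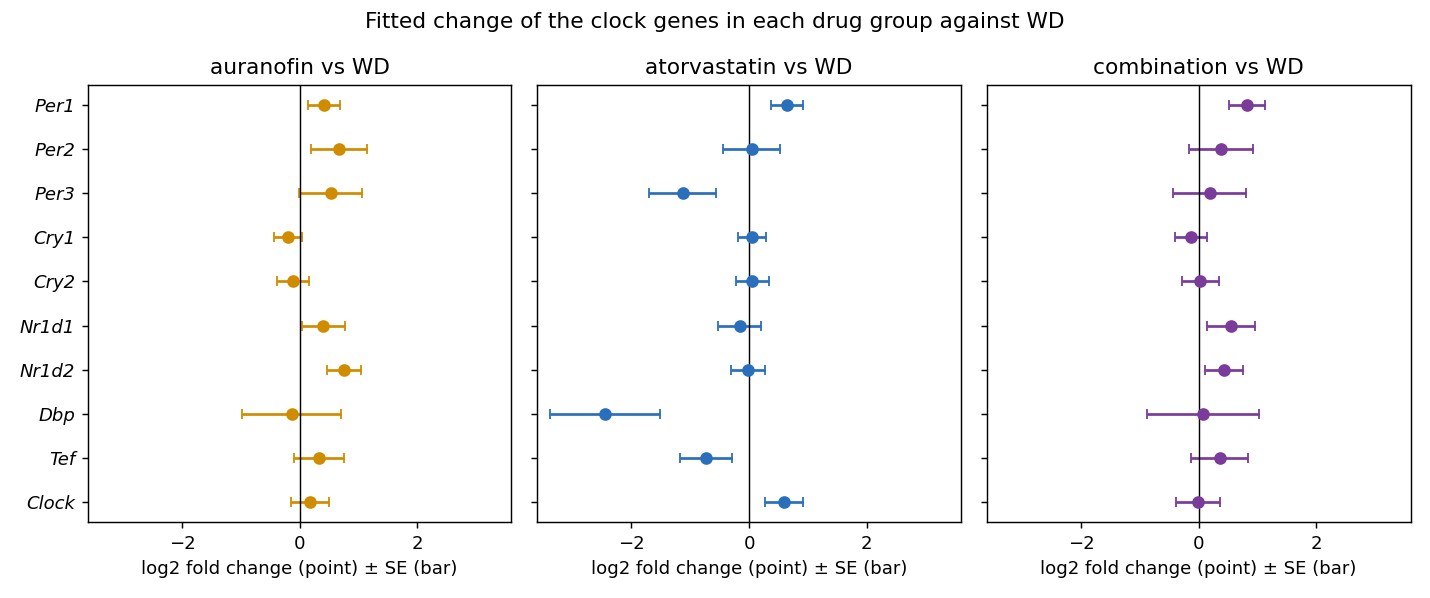
Fitted log2 fold change against WD (point) and its SE (bar) for the 10 genes with auranofin, atorvastatin and the combination. Dbp has the widest bars, 0.84, 0.93 and 0.95, and only with atorvastatin, at -2.45, does its bar stay clear of 0.

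The 3 comparisons share the WD libraries and so are not independent. Over all 4 groups an additive model gave each drug 1 term. For auranofin Nr1d2 had a log2 term of 0.64 (SE 0.22; edgeR, adjusted p = 0.998), Dbp 0.99 (SE 0.78) and Per3 0.84 (SE 0.42). For atorvastatin Per1 had 0.55 (SE 0.21; edgeR, adjusted p = 0.546), Dbp -1.30 (SE 0.82) and Per3 -0.81 (SE 0.44). Without combination 1, the auranofin term was 0.085 for Dbp and 0.41 for Per3, and the atorvastatin term was -2.21 for Dbp and -1.24 for Per3. The atorvastatin term was -0.98 for Dbp without WD 2 and -0.49 for Per3 without WD 5. Each term had 1 member past an unadjusted p of 0.05, against 2.69% of all genes for auranofin and 7.08% for atorvastatin, and 0 past adjustment, as for 0% of all genes. The auranofin term was fitted higher for 7 members, against 44.6% of all genes, and the atorvastatin term for 4, against 50.4%. The interaction of the drugs, which asks whether the combination differs from the sum of both, was fitted positive for 6 members, against 52.3% of all genes, and was 2.66 for Dbp (SE 1.35; edgeR, adjusted p = 0.791). It was 0.79 without combination 1 and 3.44 without combination 2, and 0 members passed it even unadjusted, where 3.1% of all genes did.

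Of 17 further clock genes in a list of the pathway, 16 were tested and 0 passed adjustment in any of these comparisons. Unadjusted, 1 of the 16 passed with auranofin, where 6.5% of all genes did, 1 with atorvastatin (14.7%) and 0 with the combination (1.47%). The auranofin term had 3 of 16, Npas2, Bhlhe40 and Nfil3, against 2.69% of all genes, and the atorvastatin term and the interaction had 0. Npas2, which stands in for Clock, had a log2 fold change of -1.71 with auranofin (SE 0.75; edgeR, adjusted p = 0.671), at 4.86 ± 2.70 CPM with auranofin (n = 3) and 16.0 ± 12.5 CPM in WD (n = 5). It was -1.35 without auranofin 2, -1.99 without WD 2 and -0.81 without WD 1, WD 4 and combination 2. For Npas2 the difference in mean log2 CPM was smaller than the fitted value, at -1.29. Ciart, a repressor of the CLOCK and BMAL1 pair, had -2.60 with atorvastatin (SE 1.07; edgeR, adjusted p = 0.340), and -1.92 without WD 2. The difference in its mean log2 CPM was smaller, at -1.46. Bhlhe40, which represses at E-boxes, was at 77.1, 97.6 and 84.9 CPM in auranofin and 94.9 and 71.0 in combination libraries, all above the 42.7 to 70.6 CPM of WD, though combination 2 exceeded WD 2 by very little. Over all genes, the groups of 2.77% did not overlap with auranofin and those of 3.29% with the combination. Among the other clock and output genes tested, 2 and 1 did not overlap, Bhlhe40 included. The log2 fold change of Bhlhe40 was 0.44 with auranofin (SE 0.21) and 0.38 with the combination, and neither passed. With the combination it was 0.14 without combination 1 and 0.58 without combination 2. WD 2 and WD 5 lay within or below the auranofin range of Npas2 and below that of Arntl. Of 7 output genes of the clock, 0 passed adjustment. Unadjusted, 1 passed with auranofin (Nampt, an enzyme of NAD synthesis), 1 with atorvastatin (Tspan4, a tetraspanin) and 0 with the combination.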

How the data were processed

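The authors deposited raw counts per gene for 13 libraries, which were used as deposited. Per the submitters' processing notes, the aligner was STAR 2.6.1d, the build GRCm39 and the counter featureCounts (Subread 1.6.3); per the labels, the libraries were poly-A selected and not stranded. Low-count genes were removed with filterByExpr over the 4 groups, which left 18055 genes holding at least 99.9% of counts. CPM used TMM-scaled library sizes, and log2 CPM a prior count of 1. Group means were tested by quasi-likelihood F-tests (edgeR 4.0.16, R 4.3.3), two-sided, and p-values were adjusted with Benjamini-Hochberg over all genes (threshold 0.05). Permutation tests of correlations drew 1e+05 permutations. Exon lengths came from a GRCm38 annotation. The scripts were tested on simulated data. Of simulated 2-fold changes, 0%, 1% and 1% were called for auranofin, atorvastatin and the combination against WD. Of 4-fold changes, 89.5%, 87% and 79.5% were called. Changes near 2-fold or smaller would thus rarely have been called in these comparisons. No 2 libraries had identical counts. Members, lists and tests were chosen with earlier results of these data known, and named genes are the 10 members, up to 4 other clock genes with the smallest p in each comparison, and the 8 genes most alike and the 8 most opposed to Dbp. Other clock and output genes were named after their values were seen. Alternatives were DESeq2 1.42.0, median-of-ratios size factors, no filter, an adipocyte covariate, the compared groups alone, a replicate block and leaving out each library. After the data were seen, the 3 libraries highest in heart muscle and the 2 with the lowest scaling factors were also left out.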

Additional observations from a re-analysis of the deposited data

How the results depend on the processing

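None of the 10 clock genes passed adjustment under any alternative run (lowest adjusted p 0.175, without WD 1, WD 4 and combination 2, chosen after the data were seen). Over all 18055 genes edgeR gave 0 calls in each of the 6 comparisons, beside 1173, 2648 and 265 genes at an unadjusted p under 0.05 for auranofin, atorvastatin and the combination against WD. Without the low-count filter 13, 2 and 9 genes were called, and with DESeq2 4 for the combination and 16 for the interaction. Leaving out 1 library gave 0 to 10 calls for the combination and 0 to 2 for the interaction, the highest without combination 1. Of the 13 relations with Dbp that had passed, 0 passed as deviations from the group means. Outside those 13, r of Csnk1d turned from -0.25 to 0.029 as deviations. That of the contractile smooth muscle score turned from -0.013 to 0.28. R with the library number turned to -0.0042 for Nr1d1 with median-of-ratios factors and -0.015 for Nr1d2 as deviations.

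The sign of small fold changes turned under some settings, and the cause was not tested. With the adipocyte covariate Dbp was 0.29 for auranofin and -0.18 for the combination. Libraries with the same replicate number in different groups were treated as unpaired. Their deviations from the group means had an r over 0.1 in 7 of 15 same-number pairs, with a range of -0.37 to 0.53. Pairs with different numbers were not compared, so this check cannot decide whether the numbers pair the libraries. With a replicate block 0 genes were called, and Per2 and Nr1d2 were -0.22 and 0.048 for atorvastatin, Clock 0.20 for the combination, Cry2 0.047 for the auranofin term and Nr1d1 0.032 for the atorvastatin term. Without WD 1, WD 4 and combination 2, Tef was -0.11 for auranofin, and Per2 -0.33, Cry1 -0.039 and Cry2 -0.14 for atorvastatin. Leaving out 1 library, the values ran for auranofin from -0.34 to 0.054 for Cry2, -0.44 to 0.40 for Dbp and -0.019 to 0.33 for Clock. For atorvastatin they ran from -0.38 to 0.27 for Per2, -0.13 to 0.13 for Cry1, -0.072 to 0.22 for Cry2, -0.45 to 0.021 for Nr1d1 and -0.33 to 0.16 for Nr1d2. For the combination they ran from -0.51 to 0.94 for Per2, -0.998 to 0.83 for Per3, -0.38 to 0.076 for Cry1, -0.31 to 0.30 for Cry2, -1.82 to 0.87 for Dbp, -0.44 to 0.87 for Tef, -0.50 to 0.35 for Clock and -0.46 to 1.38 for Hlf. For the auranofin term they ran from -0.19 to 0.021 for Cry2 and -0.28 to 0.062 for Clock. For the atorvastatin term they ran from -0.34 to 0.13 for Per2, -0.037 to 0.12 for Cry1, -0.017 to 0.19 for Cry2 and -0.20 to 0.080 for Nr1d1. Of the log2 fold changes recomputed with 1 library left out, 53 reversed their sign and 870 kept their sign and their side of the threshold; under other settings 11 reversed and 428 kept both.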

Other observations

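Per1 is known as a glucocorticoid target, and after its values were seen the 10 genes were set against a score of 7 glucocorticoid response genes and one of 9 immediate early genes, 20 relations over the 13 libraries. Per1 with the glucocorticoid response score had an r of 0.61 (two-sided permutation p = 0.0273, adjusted p = 0.547) and a rho of 0.71 (p = 0.00856, adjusted p = 0.171). Without auranofin 2 and auranofin 1, the libraries farthest from the median of the score, r was 0.75, and as deviations from the group means it was 0.43. By r, 0 of the 20 relations passed adjustment. Per1 with the immediate early score had an r of 0.23, and Per2 with the glucocorticoid response score 0.47, which was 0.05 without those libraries.

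The log2 ratio of Dbp to Arntl, which sets a gene of one phase of the loop against a gene of the other, was 3.08, 4.33 and 4.15 in auranofin, 0.06, -0.79 and -0.75 in atorvastatin, and 6.21 and 0.67 in combination libraries, against -1.03, 6.40, 1.78, -0.68 and 7.10 in WD. The auranofin libraries lay between those of WD 3 and WD 2, and WD held both the lowest and the highest value of the series.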
